A study of Mus musculus with 16 samples.

Results

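The genes described here are the 69 clustered histone genes of mouse skeletal muscle libraries, out of 55471 gene rows in the count table. A row was a member when its symbol in the GENCODE M21 names began with Hist1h, Hist2h, Hist3h or Hist4h, and 1 symbol that marks a pseudogene by the ending "-ps" was left out. By annotated type, 67 members were protein-coding, *Hist1h2al* was a processed pseudogene and *Hist1h2aj* an unprocessed pseudogene. The members comprised 6 linker histone H1 genes and, for the core histones, 20 H2A, 18 H2B, 12 H3 and 13 H4 genes. The Hist1 group held 56 members on chromosome 13, the Hist2 group 10 on chromosome 3, the Hist3 group 2 on chromosome 11 and the Hist4 group 1 on chromosome 6.

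Clustered histone genes are the replication-dependent histone genes, which supply H1, H2A, H2B, H3 and H4 while DNA is copied. Their main mRNAs have no introns and no poly-A tail, and end instead just after a stem-loop that the stem-loop binding protein SLBP holds. Several of them are also known to make longer, polyadenylated transcripts in cells that no longer divide, and a poly-A library selects such transcripts. Skeletal muscle consists mostly of fibers whose nuclei have left the cell cycle.

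Bulk RNA-seq of poly-A RNA was performed on skeletal muscle of 16 male mice, 10 labelled *Npr1*+/- and 6 labelled *Npr1*+/+, with 1 library per mouse. The *Npr1*+/- mice carried 1 copy of the Npr1tm1Gar allele in the germline, so every cell type of the animal was heterozygous, and the line had been backcrossed to C57BL/6J for at least 10 generations. The controls were littermates, and all mice of both labels received a high-fat diet with 60% of its kcal from lipid for 12 weeks. The mice are described as 12 weeks old, and whether this was their age when the diet began is not given in the sources used here. The labels give the tissue as skeletal muscle without naming the muscle, and place the mice in 4 cages, where cage 675 held 2 mice labelled *Npr1*+/- and 2 labelled *Npr1*+/+, cage 676 held 3 and 1, cage 677 held 1 and 2, and cage 678 held 4 and 1.

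Between 15273472 and 59682677 fragments were counted on genes in each library, the largest number in *Npr1*+/- replicate 5. *Npr1*, the targeted gene, which encodes the natriuretic peptide receptor GCA, measured 13.6 ± 3.87 CPM (counts scaled to a common library total; SD, n = 10) in mice labelled *Npr1*+/- and 12.2 ± 1.05 CPM (SD, n = 6) in mice labelled *Npr1*+/+. It was not lower under the *Npr1*+/- label, with a log2 difference of 0.09 (SE 0.20) and a p of 1 in edgeR's quasi-likelihood test after Benjamini-Hochberg adjustment, and a gene-level count does not separate the 2 alleles. Every direction given below is therefore between the labels. Of the 8 muscle fiber markers, 7 were above 0 in every library and *Myh7*, the slow fiber myosin, measured 0 to 28.6 CPM. Together the 8 markers summed to 58893 to 133671 CPM over both labels. Of the listed genes of dividing cells, *Mki67* measured 0.23 to 0.90 CPM and *Pcna* 13.2 to 29.1 CPM.

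The stem-loop was present in the gene models of most members. It was searched on the transcript strand as 16 letters, GG, 2 free letters, CTT, 1 free letter, T, 1 free letter, AG, 2 free letters and CC, and 46 of the 67 members with an annotated stop codon held it after that codon (68.7%), against 90 of 21834 other protein-coding genes with a match anywhere in a transcript (0.412%). The same 16 letters, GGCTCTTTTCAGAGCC, stood in 26 of these members. The following 30-base stretches, from the GENCODE M21 transcripts in 5′ to 3′ direction with the stem-loop in capitals, are shown for detected members of several families and, last, for 2 members that were not detected.
Hist1h1c: ccaaaaGGCTCTTTTCAGAGCCaccactcc
Hist1h4i: cttaaaGGCCCTTTTTAGGGCCaccacaaa
Hist1h4h: accaaaGGCCCTTTTCAGGGCCgcccacat
Hist1h1e: cccaaaGGCTCTTTTCAGAGCCacccacaa
Hist3h2a: accaaaGGCTCTTTTCAGAGCCacccacaa
Hist2h3c2: cacaaaGGCTCTTTTCAGAGCCaccacagc
Hist1h4b: acaaaaGGTCCTTTTCAGGACCactcactg
Hist2h2aa1: taaaaaGGCTCTTTTCAGAGCCacccactg
The stem-loop began 24 bases after the stop codon in *Hist1h1c*, 30 in *Hist1h4i* and 31 in *Hist1h4h*. *Hist1h1e* and *Hist3h2a* carried the same 16 letters and the same 8 bases after them, at 40 and 41 bases after their stop codons. *Hist2h2aa1*, which had no count in any library, carried the same 16 letters as *Hist1h1c*. Many models without a match, such as those of *Hist1h2bl*, *Hist1h4k* and *Hist1h3i*, ended at the stop codon, with 0 bases after it. The search therefore does not show that these genes lack a stem-loop.

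Of the 69 members, 17 were detected, meaning that they had 10 or more counts in at least 6 of the 16 libraries. Detected were 3 of 6 H1 genes (*Hist1h1c*, *Hist1h1d*, *Hist1h1e*), 3 of 20 H2A genes (*Hist1h2ac*, *Hist1h2al*, *Hist3h2a*), 4 of 18 H2B genes (*Hist1h2bc*, *Hist1h2be*, *Hist1h2bh*, *Hist2h2be*), 3 of 12 H3 genes (*Hist1h3d*, *Hist1h3i*, *Hist2h3c2*) and 4 of 13 H4 genes (*Hist1h4c*, *Hist1h4d*, *Hist1h4h*, *Hist1h4i*). By group, 14 of 56 Hist1 genes, 2 of 10 Hist2 genes, 1 of 2 Hist3 genes and the single Hist4 gene's 0 of 1 were detected. Another 34 members had at least 1 count but were not detected, and 18 had no count in any library. A count of 0 allows a level of up to 0.050 CPM in the deepest library and 0.196 CPM in the shallowest, taking 3 counts as the limit, and intervals of this kind cover counting error only.

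Members just outside the detection rule were *Hist1h2bg*, *Hist1h3f*, *Hist4h4*, *Hist1h3e* and *Hist2h4*, which reached 10 counts in 4, 3, 2, 1 and 1 libraries. Just inside it, *Hist1h4c* and *Hist1h4d* reached 10 counts in 6 libraries each and *Hist1h3i* in 8. The remaining 47 members had fewer than 10 counts in every library. Together the 52 undetected members contributed 1.64 to 3.44 CPM per library. The rule counts fragments, so the depth of a library entered it. When all libraries were thinned to the smallest total, 14 members were detected, without *Hist1h3i*, *Hist1h4c* and *Hist1h4d*.

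Most of the signal came from a few genes. The linker histone gene *Hist1h1c* held 59.7% of the members' summed CPM, the H2B gene *Hist1h2bc* 14.9%, and the H4 genes *Hist1h4i* and *Hist1h4h* 7.17% and 4.39%. Summed over all 69 members, the level ran from 231 through a median of 341 to 450 CPM in mice labelled *Npr1*+/- (332 ± 73.6, SD, n = 10). It ran from 310 through 345 to 479 CPM in mice labelled *Npr1*+/+ (363 ± 62.0, SD, n = 6). The groups overlapped over most of their range, and the difference between the means (*Npr1*+/- minus *Npr1*+/+), −30.7 CPM, was smaller than either SD. The difference was −7.37 CPM without *Npr1*+/+ replicate 1, −19.4 CPM without *Npr1*+/- replicate 7, −4.83 CPM between the medians of the labels and −52.7 CPM when only library totals were used for scaling. Without *Hist1h1c* the sum was 135 ± 28.0 CPM (SD, n = 10) and 143 ± 16.03 CPM (SD, n = 6).

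**Figure D1:**
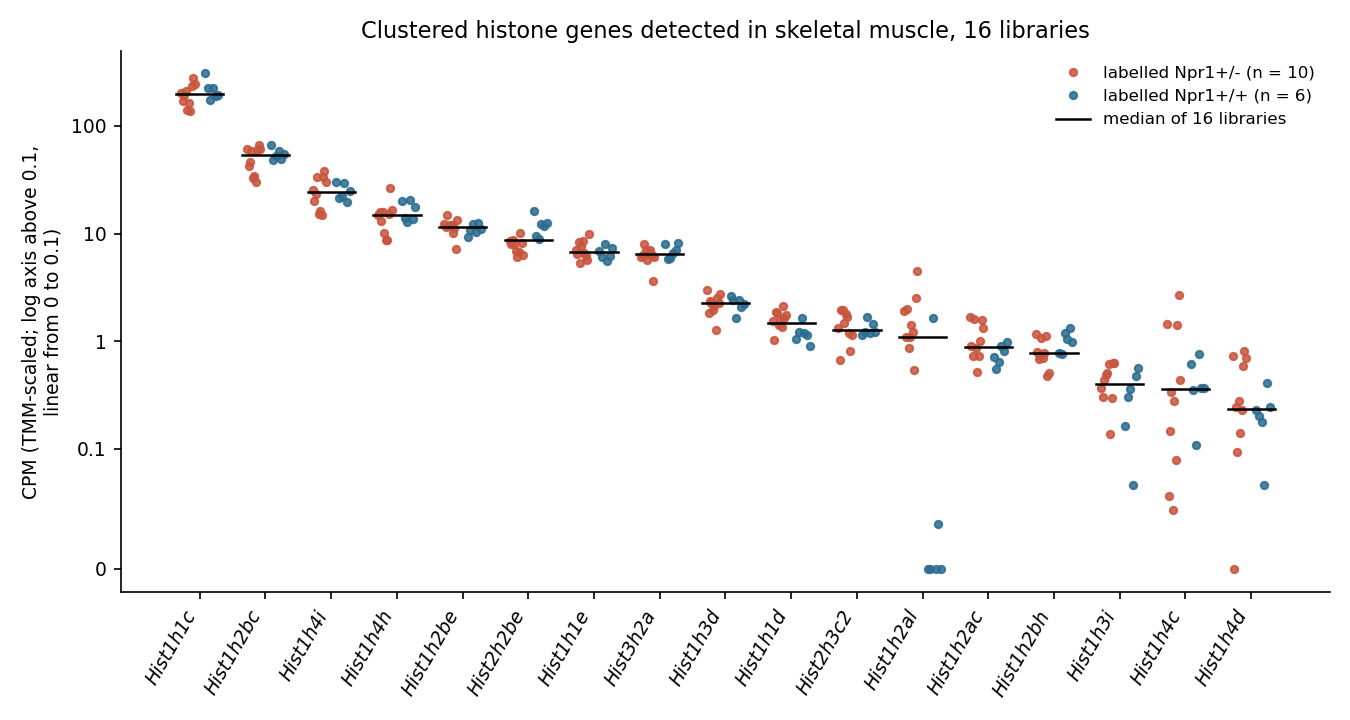
CPM of the 17 detected members (horizontal axis, ordered by median) in the 16 libraries, on a log axis above 0.1 CPM and a linear axis below it; each point is 1 mouse, coloured by genotype label, and the bar is the median of the 16 libraries. *Hist1h1c* lay between 137 and 311 CPM, while *Hist1h2al* was at 0 in 4 of 6 libraries labelled *Npr1*+/+ and above 0.5 CPM in all 10 labelled *Npr1*+/-.

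H1 proteins bind the linker DNA between nucleosomes. *Hist1h1c* (chr13:23738808-23740367, GRCm38, plus strand) ran from 137 through 197 to 277 CPM in mice labelled *Npr1*+/- and from 175 through 208 to 311 CPM in mice labelled *Npr1*+/+. The lowest libraries were *Npr1*+/- replicates 7 and 5 and the highest was *Npr1*+/+ replicate 1. *Hist1h1e* had a median of 6.75 CPM (5.34 to 9.82) and *Hist1h1d* of 1.47 CPM (0.90 to 2.14) over the 16 libraries. Per kilobase of gene model, the median level was 126 CPM for *Hist1h1c*, 3.499 for *Hist1h1e* and 0.20 for *Hist1h1d*. *H1f0*, the H1 gene outside the clusters that is known to accumulate in cells that have stopped dividing, measured 61.3 CPM per kilobase. The lowest library of *Hist1h1c* lay above the highest of *Hist1h1e*, and the lowest of *Hist1h1e* above the highest of *Hist1h1d*, in CPM. The other 3 H1 genes, *Hist1h1a*, *Hist1h1b* and the testis gene *Hist1h1t*, had 13, 17 and 1 counts over all 16 libraries.

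H2A and H2B form the dimers at the faces of the nucleosome. *Hist1h2bc* (chr13:23684199-23692908, GRCm38, plus strand) ran from 30.3 through 52.1 to 66.9 CPM in mice labelled *Npr1*+/- and from 48.6 through 53.8 to 67.2 CPM in mice labelled *Npr1*+/+. The libraries of *Npr1*+/- replicates 5, 6 and 7 lay between 30.3 and 34.3 CPM, and those of *Npr1*+/- replicates 2 and 3 at 42.9 and 45.8 CPM. All of these lay below every library labelled *Npr1*+/+. *Hist1h2ac*, the H2A gene that starts 251 bases away on the opposite strand, had a median of 0.89 CPM (0.51 to 1.68). Per kilobase, the medians of this divergent pair were 46.5 CPM for *Hist1h2bc* and 0.36 CPM for *Hist1h2ac*. The other detected H2B genes were *Hist1h2be* with a median of 11.6 CPM (7.21 to 14.998), *Hist2h2be* with 8.70 CPM (6.09 to 16.1) and *Hist1h2bh* with 0.79 CPM (0.48 to 1.33). *Hist3h2a* had a median of 6.45 CPM (3.65 to 8.18), and 33.0% of its exon length is shared with *Trim17* on the same strand or with *Gm44313*, an entry of miRNA type, on the opposite strand. *Hist1h2be* and *Hist1h1e* overlap at their ends on the same strand, so the assignment of fragments there is uncertain for both.

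H3 and H4 form the central tetramer. *Hist1h4i* (chr13:22040636-22041362, GRCm38, minus strand) ran from 14.9 through 24.4 to 38.2 CPM in mice labelled *Npr1*+/- and from 19.7 through 23.6 to 30.3 CPM in mice labelled *Npr1*+/+. *Hist1h4h* (chr13:23531050-23531519, GRCm38, plus strand) ran from 8.71 through 15.04 to 26.6 CPM and from 12.9 through 15.7 to 20.6 CPM. The highest library of both genes within the *Npr1*+/- label was replicate 9. Their medians per kilobase, 33.3 and 32.0 CPM, did not differ beyond the spread of the libraries. *Hist1h4c* had 1 to 56 counts per library and *Hist1h4d* 0 to 17. *Hist1h4c* was highest in *Npr1*+/- replicates 9, 8 and 1, with 56, 24 and 20 counts, and in *Npr1*+/+ replicate 1, with 19 counts, and had 11 counts or fewer in each of the others. H3 genes were low, with a median of 2.27 CPM (1.27 to 2.998) for *Hist1h3d*, 1.27 CPM (0.67 to 1.96) for *Hist2h3c2* and 0.40 CPM (0.07 to 0.63) for *Hist1h3i*. The H3 genes outside the clusters, *H3f3a* and *H3f3b*, which encode the replacement histone H3.3, measured 62.0 and 55.2 CPM.

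Detection differed between classes of gene model. Among the 26 members whose longest model ran more than 50 bases past the stem-loop, 12 were detected, as was 1 of the 20 whose model ended within 50 bases of it and 4 of the 23 with no stem-loop in the model. The single detected member of the second class was *Hist1h4h*, whose model ended 46 bases after the stem-loop. The 4 detected members of the last class were *Hist1h2bc*, *Hist2h2be*, *Hist1h3i* and *Hist1h2al*. The polyadenylation signal letters AATAAA stood after the stop codon in 19 members, of which 8 were detected, and were not found there in 50 members, of which 9 were detected. A model that ended at the stop codon, like that of *Hist1h3i*, could show neither the stem-loop nor AATAAA. The class without a stem-loop and these 50 members thus include genes whose models were too short to show them. Of the 18 members with a longest transcript of 1000 bases or more, 12 were detected, and of the 51 shorter members 5 were detected.

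Shared sequence moved with detection as well. For each member, all 52-base stretches of its model, the read length of these libraries, were compared on both strands with the transcripts of every gene that does not overlap it. The median share of stretches found in no other gene was 81.9% for detected members, 44.1% for undetected members and 30.04% for the 18 members without a count. Among the 32 members with under 50% of such stretches, 3 were detected (*Hist1h2al* with 34.0%, *Hist2h3c2* with 36.5% and *Hist1h3i* with 13.1%), against 14 of the 37 others. The share moved with the class of the gene model too, with medians of 77.1% for models that ran more than 50 bases past the stem-loop, 38.2% for those that ended within 50 bases of it and 20.98% for those without a stem-loop, and the parts of the model class and of shared sequence in detection were not tested apart. H2A genes had the lowest shares, with a median of 27.1%, and 19 of the 20 H2A genes also carry an entry of miRNA type, 129 to 144 bases long, on the opposite strand, while 0 other members do. The strand setting and the handling of reads with several matches are not given in the sources used here. The number of counts of a member with few stretches of its own is uncertain, and a missing poly-A tail and reads that matched several genes cannot be told apart for the undetected members with shared stretches. Overlap with other genes is a further limit. The 5 Hist2 members without a count, *Hist2h2aa1*, *Hist2h2aa2*, *Hist2h2bb*, *Hist2h3b* and *Hist2h3c1*, have their whole exon length covered by other annotated genes, although *Hist2h2bb* shared no 52-base stretch with a gene elsewhere. *Hist1h1a*, *Hist1h1b* and *Hist1h1t*, all undetected, shared no 52-base stretch with another gene and overlapped no other exon.

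**Figure D2:**
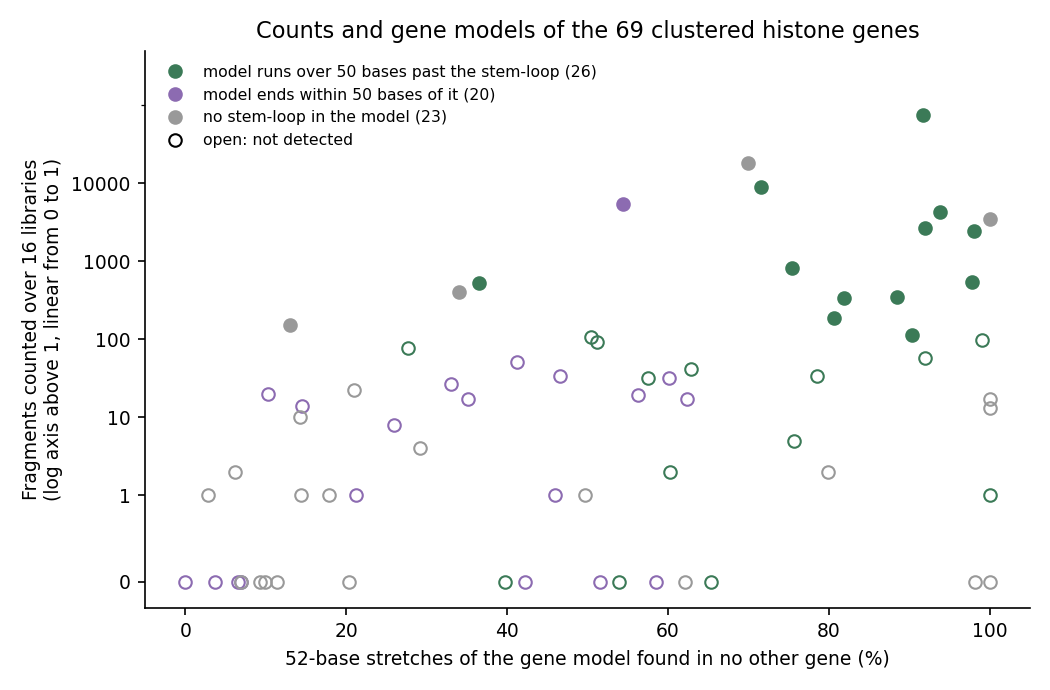
Fragments counted over the 16 libraries (vertical axis, log above 1) against the share of 52-base stretches of the gene model found in no other gene (horizontal axis, percent) for the 69 members; colour gives the class of the model and open circles are undetected members. Of the 17 filled points, 14 lie at 50% or more, and 12 have a model that runs more than 50 bases past the stem-loop.

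The detected genes did not vary as 1 group. Over the 105 pairs of the 15 detected members that passed the filter on low counts, the median Pearson correlation of log2 CPM across the 16 libraries was 0.04 (−0.79 to 0.93), given as a description. *Hist1h1c*, *Hist1h2bc*, *Hist1h4h* and *Hist1h4i* varied together, with correlations of 0.83 to 0.93 between them. In contrast, *Hist1h4h* ran against *Hist2h3c2* (−0.63) and *Hist1h2be* (−0.52), and the most negative pair was *Hist1h2al* and *Hist2h2be* (−0.79). The genes most like *Hist1h1c* among all genes tested were *Get4* (0.97), *Hyal2* (0.96) and *Prkrip1* (0.95). Those most like *Hist1h2bc* were *Jtb*, *Gtf2a2* and *Brk1* (0.97 to 0.98), and those most like *Hist1h4i* were *Sec61b*, *Ykt6* and *Eef1e1* (0.94 to 0.96). All points of these correlations share the libraries and their depth.

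The 4 genes moved with a property of the libraries. In each library, the median deviation of the 1653 tested genes shorter than 1500 bases was compared with that of the 5741 longer than 5000 bases, on the log2 scale. This short-minus-long value ran from −0.84 in *Npr1*+/- replicate 7 to 0.65 in *Npr1*+/- replicate 9. The mean deviation of the 4 histone genes was lowest and highest in the same libraries, at −0.66 and 0.59. *Npr1*+/- replicates 5 and 6 were also low on both, with short-minus-long values of −0.47 and −0.63 and histone deviations of −0.57 and −0.52. The part of this property in the levels of the 4 genes was not tested.

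**Figure D3:**
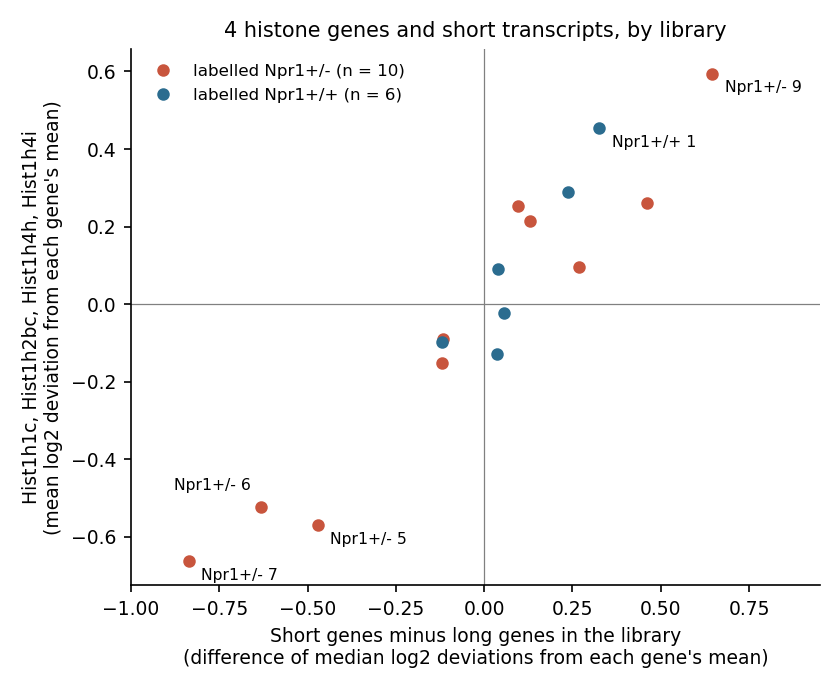
Mean log2 deviation of *Hist1h1c*, *Hist1h2bc*, *Hist1h4h* and *Hist1h4i* from each gene's mean (vertical axis) against the short-minus-long value of the library (horizontal axis, log2); each point is 1 library, coloured by genotype label. *Npr1*+/- replicate 9 is at the upper right (0.65, 0.59) and replicate 7 at the lower left (−0.84, −0.66).

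The main question of the design was which genes differ between HFD-fed *Npr1*+/- and *Npr1*+/+ mice. With cage and body weight as covariates, 0 of the 15 members tested differed between the labels at an adjusted p under 0.05 in edgeR's quasi-likelihood test after Benjamini-Hochberg adjustment over 14331 genes, where the share called over all genes was 0%. At an unadjusted p under 0.05 there were 3 members (*Hist1h2al*, *Hist2h2be* and *Hist1h1d*), against 1.05% of all genes tested. DESeq2 with the same covariates called 1 member, *Hist1h2al*, among 6 of 14331 genes (0.0419%). Fitted differences were above 0 for 9 members and below 0 for 6, and their median was 0.03 (log2), beside −0.01 over all genes tested. Since all cells of the muscle were sequenced together, fewer cells of a type and less RNA per cell cannot be told apart.

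*Hist1h2al* had the smallest p among the members. In mice labelled *Npr1*+/- it had 9 to 72 counts, with a count above 0 in 10 of 10 libraries, and a level of 0.54 through 1.32 to 4.53 CPM. In mice labelled *Npr1*+/+ it had 46 counts in replicate 3, 1 count in replicate 5 and 0 counts in replicates 1, 2, 4 and 6. The groups therefore overlapped through replicate 3 alone, whose 1.65 CPM lay within the range of the *Npr1*+/- label. The means were 1.72 ± 1.15 CPM (SD, n = 10) and 0.28 ± 0.67 CPM (SD, n = 6), and the fitted log2 difference was 4.33 (SE 1.09), with an unadjusted p of 0.0011, the 6th smallest of all genes, and an adjusted p of 1 in edgeR's quasi-likelihood test. A fitted difference against a group with libraries at 0 depends on the prior count and is no bound. Its cage means were higher under the *Npr1*+/- label in 4 of 4 cages, of which 676, 677 and 678 held 1 mouse of 1 of the labels. Cage means lay in 1 direction in all 4 cages for 11.5% of all 14331 genes tested and for 5 of the 15 members tested (*Hist1h1d*, *Hist1h1e*, *Hist1h2ac* and *Hist1h2al* higher, *Hist2h2be* lower), a count that was not tested.

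With all libraries, the groups did not overlap for 1 of 14331 genes (0.00698%), which was no member. The call of *Hist1h2al* changed with 1 library. Without *Npr1*+/+ replicate 3, edgeR's quasi-likelihood test gave a log2 difference of 6.79 and an adjusted p of 0.0158, where 0.0208% of all genes were called. That library was the one that departed from the others of its label, and 9 of the 10 libraries in which the gene reached 10 counts carried the *Npr1*+/- label, so this value describes the dependence on 1 mouse and is no independent support. DESeq2 on all libraries gave a log2 difference of 6.22 and an adjusted p of 0.0114, and since the gene passed the filter on low counts mainly through the label where it was high, this value is a description as well. *Npr1* itself did not separate the labels, so its level gave no check of this library, and whether the label of replicate 3 is right was not tested.

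The sequence of *Hist1h2al* is shown because it bears on what was counted. The gene (chr13:51202727-51203065, GRCm38, minus strand, 1 exon of 339 bases) lies 27.3 Mb from *Hist1h2aa*, the nearest end of the Hist1 cluster. Its transcript matched *Hist2h2aa1* and *Hist2h2aa2* on chromosome 3 at 337 of 339 bases (99.4%), *Hist2h2ac* at 98.2% and other H2A genes at 92.7% or less. The differences from both *Hist2h2aa1* and *Hist2h2aa2*, written with their base first and positions counted from 1 at the 5′ end of the *Hist1h2al* transcript, were T120C and G216T. Positions 93 to 242 are given below, with these 2 bases in capitals.
Hist1h2al: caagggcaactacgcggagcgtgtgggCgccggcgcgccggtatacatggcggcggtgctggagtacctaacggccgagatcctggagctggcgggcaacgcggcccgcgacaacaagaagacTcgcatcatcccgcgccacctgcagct
*Hist2h2aa1* and *Hist2h2aa2* were identical to each other over 528 bases, and both had 0 counts in all 16 libraries. Their exons are covered over their whole length by other annotated genes, *Gm20634* on the same strand for *Hist2h2aa1* and *Gm20632* or *Gm20633* on the opposite strand, so how such fragments were assigned bears on these zeros too. They lie 5.78 and 5.77 Mb from *Npr1* on chromosome 3. Whether fragments counted for *Hist1h2al* came from chromosome 13 or chromosome 3 was not tested, since only gene-level counts were used.

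The genes most like *Hist1h2al* across the 16 libraries were *Rps3a3* on chromosome 13 (r = 0.91), *Rps3a2* on chromosome 14 (0.89) and *A930005H10Rik* on chromosome 3 (0.88). The first pair share the name of *Rps3a1*, a ribosomal protein gene 4.31 Mb from *Npr1*. *A930005H10Rik* lies 25.4 Mb from *Npr1*.

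*Hist2h2be* had the next smallest unadjusted p, in the opposite direction. It lies at chr3:96221119-96223738 (GRCm38, plus strand), 5.76 Mb from *Npr1*, and none of its 52-base stretches was found in another gene. Its level ran from 6.09 through 8.06 to 10.2 CPM in mice labelled *Npr1*+/- and from 8.91 through 12.0 to 16.1 CPM in mice labelled *Npr1*+/+. The groups overlapped between 8.91 and 10.2 CPM, where *Npr1*+/+ replicates 2 and 3, both of cage 675, met *Npr1*+/- replicate 8. The means were 7.78 ± 1.27 CPM (SD, n = 10) and 11.9 ± 2.59 CPM (SD, n = 6), with a log2 difference of −0.61 (SE 0.18), an unadjusted p of 0.0043, the 12th smallest of all genes, and an adjusted p of 1 in edgeR's quasi-likelihood test. Cage means under the *Npr1*+/- and *Npr1*+/+ labels were 7.43 and 9.16 CPM in cage 675, 8.37 and 11.7 CPM in cage 676, 6.85 and 14.4 CPM in cage 677 and 7.76 and 12.3 CPM in cage 678. The *Npr1*+/- label was thus lower in 4 of 4 cages, although cages 676 and 678 held 1 mouse labelled *Npr1*+/+ and cage 677 held 1 labelled *Npr1*+/-. Leaving out each mouse in turn gave log2 differences of −0.67 to −0.51.

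**Figure D4:**
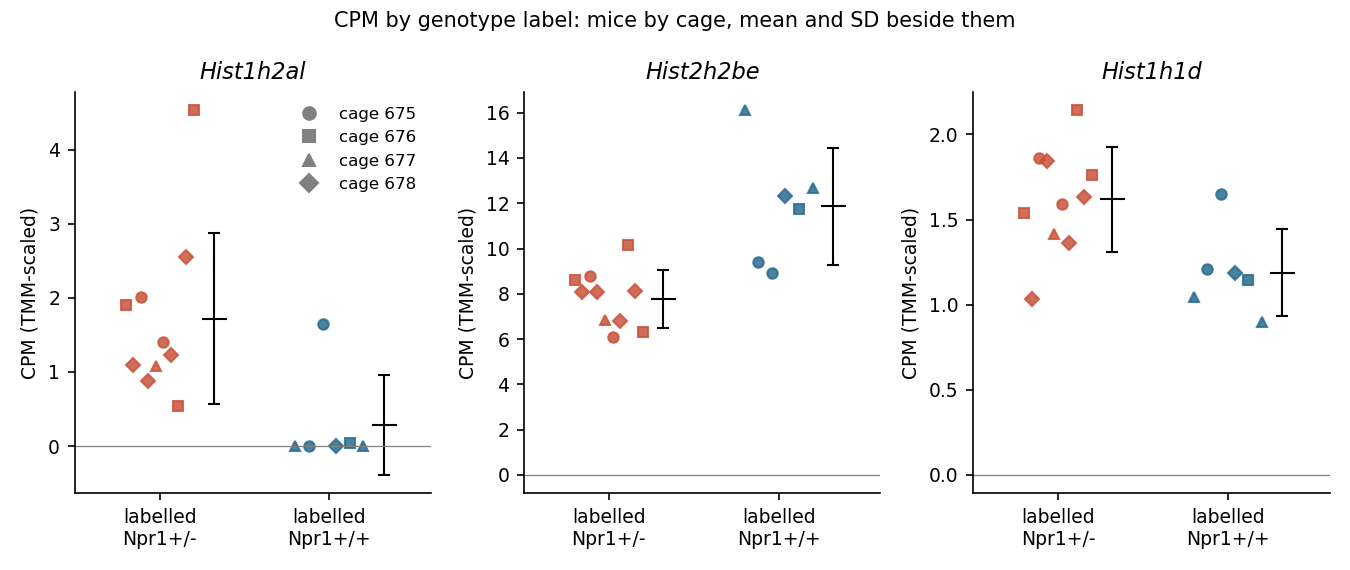
CPM of *Hist1h2al*, *Hist2h2be* and *Hist1h1d* (vertical axes) by genotype label; each point is 1 mouse, its shape gives the cage, and the bars beside the points are the mean and SD. *Hist1h2al* was at 1.65 CPM in *Npr1*+/+ replicate 3 and at 0.037 CPM or less in the other 5 mice of that label.

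Among the other members, *Hist1h1d* measured 1.62 ± 0.31 CPM (SD, n = 10) under the *Npr1*+/- label and 1.19 ± 0.25 CPM (SD, n = 6) under the *Npr1*+/+ label. Its groups overlapped between 1.03 and 1.65 CPM, and the log2 difference of 0.52 (SE 0.24) had an unadjusted p of 0.041 and an adjusted p of 1 in edgeR's quasi-likelihood test. *Hist1h3i* (0.83, SE 0.50) and *Hist1h2ac* (0.44, SE 0.30) had the next smallest unadjusted p-values, 0.11 and 0.16 in the same edgeR fit. The log2 difference of *Hist1h3i* was 1.44 without *Npr1*+/+ replicate 5 and 0.52 without *Npr1*+/+ replicate 4, and the gene fell below the filter on low counts when *Npr1*+/- replicate 4, 5, 6, 9 or 10 was left out. The abundant genes differed less. Their log2 differences were −0.05 (SE 0.20) for *Hist1h1c*, −0.11 (SE 0.20) for *Hist1h2bc*, 0.07 (SE 0.24) for *Hist1h4i* and −0.16 (SE 0.24) for *Hist1h4h*, each smaller than its SE. *Hist2h3c2*, whose gene lies 5.77 Mb from *Npr1* beside *Hist2h2aa2*, had a log2 difference of 0.03 (SE 0.29). Cage means of *Hist1h1c*, *Hist1h2bc*, *Hist1h4h* and *Hist1h4i* were higher under the *Npr1*+/- label in 1 of 4 cages and lower in 3.

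The F test of the cage term called 0 of the 15 members, against 0.0279% of all genes (4 of 14331), in edgeR's quasi-likelihood test after Benjamini-Hochberg adjustment. At an unadjusted p under 0.05 there were 0 members, beside 7.36% of all genes. The smallest unadjusted p-values from edgeR's cage term were 0.071 for *Hist1h2ac*, 0.11 for *Hist1h4h* and 0.13 for *Hist1h1e*. *Hist1h2ac* had cage means of 0.61 ± 0.10 CPM in cage 675 (SD, n = 4), 1.21 ± 0.38 in cage 676 (n = 4), 0.86 ± 0.13 in cage 677 (n = 3) and 1.15 ± 0.42 in cage 678 (n = 5). *Hist1h4h* had cage means between 12.2 CPM in cage 675 and 17.5 CPM in cage 678, and the ranges of all 4 cages overlapped.

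Body weight ran from 36.5 to 54.0 g. Its slope called 0 of the 15 members, beside 0% of all genes, in edgeR's quasi-likelihood test after Benjamini-Hochberg adjustment, and 0 members had an unadjusted p under 0.05, against 17.1% of all genes. The smallest p-values were those of *Hist1h2bc*, with a slope of 0.05 log2 units per g (SE 0.03, unadjusted p 0.089 in edgeR), *Hist1h2al* (0.19, SE 0.11, unadjusted p 0.095) and *Hist1h4i* (0.05, SE 0.03, unadjusted p 0.12). These calls depended on 1 mouse. Without *Npr1*+/- replicate 3, the slope was called for 2 members, *Hist1h2bc* and *Hist1h4i*, and for 3158 genes in all (22.1%), and the cage term was called for 869 genes (6.08%), among them 0 members.

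Genes of the histone mRNA pathway gave no call by genotype label. The list held 12 genes, among them *Npat*, the coactivator of clustered histone genes, *Slbp*, which encodes the stem-loop binding protein, *Lsm10* and *Lsm11* of the U7 particle, and *Cpsf3*, the nuclease that cuts the pre-mRNA. Of these, 11 were tested, 0 were called and 0 had an unadjusted p under 0.05 in edgeR, with 5 differences above 0, 6 below and a median of −0.02 (log2). *Slbp* measured 5.54 ± 0.93 CPM (SD, n = 10) and 5.58 ± 0.63 CPM (SD, n = 6). *Zfp473* was not tested, with 0 to 0.27 CPM. Of 11 histone genes outside the clusters, 10 were tested, 0 were called and 0 had an unadjusted p under 0.05, with a median log2 difference of 0.00. Their summed level was 339 to 516 CPM under the *Npr1*+/- label and 408 to 478 CPM under the *Npr1*+/+ label.

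Markers of other cells in the muscle were low or gave no call. Of 19 genes of dividing cells, 15 were tested and 0 were called, with a median log2 difference of −0.06 and summed levels of 63.6 to 103 CPM and 71.5 to 93.2 CPM under the 2 labels. The levels differed within this list. *Top2a* measured 0.14 to 0.79 CPM and *Ccnb1* 0 to 0.20 CPM over the 16 libraries, while *Pcna* measured 13.2 to 29.1 CPM, *Mcm7* 9.58 to 16.3 CPM and *Tk1* 8.96 to 24.6 CPM. The 5 erythroid genes were above 0 in the *Npr1*+/- direction in 5 of 5 cases, 2 of them at an unadjusted p under 0.05 in edgeR (*Hbb-bt*, 0.026, and *Alas2*, 0.045), with summed levels of 88.0 to 510 CPM and 192 to 320 CPM. Of 4 B cell genes, *Cd79a* was the only one tested, with a log2 difference of −1.18 (SE 0.34, unadjusted p 0.0033 in edgeR), and the summed levels were 0.28 to 2.79 CPM and 1.01 to 2.35 CPM. The 3 T cell genes summed to 0.88 to 3.06 CPM and 1.31 to 2.37 CPM, and *Cd3d* had a median of 0 CPM. Macrophage, endothelial and adipocyte genes (3, 3 and 2 genes) also gave 0 calls, with summed levels of 8.53 to 18.9, 96.2 to 391 and 12.2 to 177 CPM under the *Npr1*+/- label and 12.0 to 19.7, 132 to 179 and 36.9 to 122 CPM under the *Npr1*+/+ label. The part of these cells in the histone levels was not tested.

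Promoters were compared because *Hist1h1c*, *Hist1h2bc*, *Hist1h4i* and *Hist1h4h* varied together. No promoter was matched to *Hist1h2bc*, so it is left out below. RefSeq promoters (GRCm38.p6, 250 bases before the start to 50 after it) matched 61 of the 69 members and 14 of the 17 detected ones. On either strand, CCAAT stood in 52 of the 61 members (85.2%) against 37.9% of all 27025 promoters, TATAAA in 35 (57.4%) against 14.2%, and the octamer ATTTGCAT in 13 (21.3%) against 1.75%. The families differed: CCAAT was found in all 6 H1, 17 H2A, 16 H2B and 10 H3 promoters but in 3 of 12 H4 promoters, and ATTTGCAT in 7 H2A and 6 H2B promoters and in 0 of the other families. Detected and undetected members had CCAAT in 85.7% and 85.1% of promoters and TATAAA in 7 of 14 and 28 of 47. The 120 bases before the start are given 5′ to 3′ on the gene's strand, with CCAAT in capitals; they lie at chr13:23738687-23738806, chr13:22041363-22041482 and chr13:23530924-23531043.
Hist1h1c: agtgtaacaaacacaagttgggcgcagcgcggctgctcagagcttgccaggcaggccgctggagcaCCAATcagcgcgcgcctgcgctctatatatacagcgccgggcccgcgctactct
Hist1h4i: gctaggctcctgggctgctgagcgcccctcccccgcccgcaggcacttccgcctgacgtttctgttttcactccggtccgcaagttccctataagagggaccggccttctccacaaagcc
Hist1h4h: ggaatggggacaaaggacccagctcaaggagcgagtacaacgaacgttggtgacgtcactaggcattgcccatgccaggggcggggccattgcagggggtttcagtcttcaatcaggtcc
These 3 promoters did not share any of the 3 motifs over the full window: *Hist1h1c* had CCAAT, *Hist1h4i* had TATAAA and *Hist1h4h* had none of them. The TATAAA of *Hist1h4i* lay outside the 120 bases shown. Only exact letters were searched, so close variants, such as tatata in the *Hist1h1c* stretch, were not counted. A match is a description of letters, and no match says only that these letters are not in this window.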

How the data were processed

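Poly-A RNA of skeletal muscle from 16 mice was sequenced as 52-base paired reads. The authors deposited raw counts of fragments per gene and a gene length in bases. Per the paper's methods and the submitters' processing notes, reads were mapped to GRCm38 with STAR 2.7.2b and fragments with both ends aligned were counted on GENCODE M24 genes with featureCounts (1.6.4 in the notes, while the paper's methods name another version). The strand setting and the library kit are uncertain, because the sources differ or do not give them.

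Gene symbols, gene models and transcripts came from GENCODE M21, in which every member except *Hist1h2br* had the same extent as in the table. Counts were analysed with R 4.3.3, edgeR 4.0.16 (filterByExpr by label, TMM factors, glmQLFit with robust = TRUE and legacy = TRUE, glmQLFTest), limma 3.58.1 and, as an alternative, DESeq2 1.42.0, with cage and body weight as covariates, Benjamini-Hochberg adjustment over 14331 genes and a threshold of 0.05. CPM are TMM-scaled, and correlations used log2(CPM + 0.5). Sums over the members carry no test. The edgeR fit by genotype label was checked on counts simulated from the mean levels and spreads of these libraries. The detection and sequence steps had no such check.

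The members and lists were chosen with earlier results of these data known. Named were all detected members, those with the smallest p-values by label (5), cage (3) and body weight (3), listed genes, and the 3 genes most like 4 members. The 4 genes set against short and long genes and the length limits were chosen after seeing the data. Mice that carry the same number under both labels are not the same animal, and their deviations had correlations of 0.035 to 0.21 (mean 0.11, 6 pairs), so the numbers were not taken as pairs. Each mouse is 1 sample, and p-values measure the spread between mice. Alternatives were fits with fewer covariates or with a block for the replicate number, RLE or no scaling factors, no filter, DESeq2, other detection rules, thinning, medians and leaving out each mouse.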

Additional observations from a re-analysis of the deposited data

Results flagged for a closer look

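Among 36 groups of 1 detected member and 1 genotype label, or of their sum, 3 had a lowest or highest library far from the others by Dixon's criterion on the log2 scale, and chance alone marks about 1 in 20 groups. *Hist3h2a* was lowest in *Npr1*+/- replicate 9, at 3.65 CPM, where the next library was at 5.72 CPM. *Hist1h2be* was lowest in the same library, at 7.21 CPM, where the next was at 10.2 CPM. *Hist1h2al* was highest in *Npr1*+/+ replicate 3, at 1.65 CPM, where the next library of that label was at 0.037 CPM. The library of *Npr1*+/- replicate 9 was also the highest of all 16 in *Hist1h4h*, *Hist1h4i* and *Hist1h4c*, and in the short-minus-long value.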

How the results depend on the processing

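Counts of members and genes called by genotype label, 0 and 0 as reported, were 1 and 2 with the replicate number as a replicate block in place of cage, and 1 and 6 with DESeq2, the member being *Hist1h2al* both times (log2 difference 10.4 and 6.22). Without the filter on low counts 8 genes and 0 of 51 members were called. Genes called by cage, 4 as reported, were 0 with library size alone and 23 without the filter. Leaving out each mouse gave 0 to 1 members and 0 to 3 genes by genotype label, 0 members and 0 to 869 genes by cage, 0 to 2 members and 0 to 3158 genes by body weight, 15 to 17 detected members, and differences of the summed level of −43.8 to −7.37 CPM. Other detection rules gave 12 members (10 counts in every library) and 14 (1 CPM in 6 libraries). The log2 difference of *Hist1h3d* turned to −0.0092 with the label alone, −0.019 with cage alone and −0.076 with the replicate block, and that of *Hist1h4i* to −0.13 and −0.21 with the latter 2. Leaving out single mice turned the sign of *Hist1h1c* (−0.18 to 0.11), *Hist1h2bc* (−0.28 to 0.087), *Hist1h2be* (−0.028 to 0.12), *Hist1h3d* (−0.13 to 0.29), *Hist1h4h* (−0.31 to 0.023), *Hist1h4i* (−0.14 to 0.34) and *Hist2h3c2* (−0.23 to 0.16); none of these was called in any of these fits. The other 8 members tested kept their direction in every alternative fit that included them, which for *Hist1h3i* were all but those without *Npr1*+/- replicate 4, 5, 6, 9 or 10, and apart from *Hist1h2al* the block changed no call of a member. The causes were not tested. At these depths, a member with 3 counts or fewer in a library cannot be told from one at 0.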
